A study of Mus musculus with 9 samples.

Results

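TGF-beta and BMP pathway genes were followed across organoids of mouse esophagus, small epithelial structures grown from esophageal cells in culture. The genes were chosen by symbol: Tgfb1 to Tgfb3, Tgfbr1 to Tgfbr3, Id1 to Id4, Fst, Fstl1, Fstl3, Nog, Grem1, Ski and Skil, and every symbol that starts with Bmp, Acvr, Inhb, Smad, Smurf or Ltbp. Of the 57 such symbols in the GENCODE M21 annotation, 33 had values, out of 8742 genes with values in all, and 27 of the 33 had values in all 9 libraries. Each group had 3 RNA-seq libraries, taken on day 7 after seeding and labelled untreated epithelial cells. Those labelled PCN carried the genotype Trp53;Cdkn2a;Notch1 KO, those labelled PN carried Trp53;Notch1 KO, and the third group was wild type (WT). The PCN and PN genotypes thus share the Trp53 and Notch1 knockouts. The sources used here do not say how each knockout was made, whether a group is 1 clone, or whether libraries came from separate cultures or animals. The spread behind every p-value is therefore that between these libraries, which may be technical.

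The TGF-beta superfamily is a set of secreted ligands, among them the TGF-betas, the activins and the bone morphogenetic proteins (BMPs). A ligand brings type I and type II receptor kinases together, and the type I receptor then phosphorylates SMAD proteins: SMAD2 and SMAD3 for TGF-beta and activin, SMAD1, SMAD5 and SMAD9 for BMP. The phosphorylated SMADs join SMAD4 and switch on target genes, of which the Id genes are classic BMP targets, while SMAD6, SMAD7, Ski, SnoN and the Smurf ubiquitin ligases damp the signal. In the esophagus, BMP signalling is known to promote squamous differentiation of basal cells, and TGF-beta is known to restrain growth of epithelial cells.

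The values come from 3 deposited tables, 1 for each pair of groups, and each table holds only genes that the authors had called changed in that pair. A gene with no value in a group is therefore one that had no values in the tables used here, which says nothing about its level. The effective library sizes recovered from the FPKM values, which are read counts scaled by gene length and library size, ran between 17422590 and 20198041 in libraries labelled PCN, 16857744 and 18912526 in PN, and 14695420 and 15093994 in WT. Trp53 stood at 0.624 to 0.979 FPKM in libraries labelled PCN, 0.562 to 0.801 in PN and 29.2 to 30.0 in WT, and Notch1 at 4.67 to 5.40, 9.87 to 10.8 and 14.97 to 19.45 FPKM in the same groups. Cdkn2a RNA was highest in the libraries labelled as its knockout. It stood at 53.2 to 59.9 FPKM in PCN, 18.3 to 19.4 in PN and 5.54 to 8.83 in WT. How the knockout was made is not stated, so the RNA level does not show whether it took effect. PCN is therefore used below only as a label, and each direction given for it is that of the libraries so labelled. WT replicate 3 stood farthest from its group (chi-square per degree of freedom 29.7 and 20.7 against the other WT libraries, 3.43 to 10.6 in other pairs of replicates). Leaving it out ended 1 call among the pathway genes, that of Fstl3 in PN. Of 9 esophageal epithelium markers, 7 had values in all 9 libraries, and they did not move one way. The keratins of differentiating cells, Krt4 and Krt13, averaged 1034 and 1533 FPKM in libraries labelled PCN, 1172 and 1153 in PN and 5336 and 8718 in WT, and Cdh1 94.5, 103.4 and 177.7 in PCN, PN and WT. The basal-cell genes Krt15 and Trp63 averaged 930.5 and 77.4 in libraries labelled PCN, 413.6 and 83.2 in PN and 170.0 and 57.9 in WT, Krt14 averaged 1384, 1118 and 1115 in PCN, PN and WT, and Epcam 141.5, 178.1 and 179.9. Of 7 leukocyte markers only Cd68 had values (12.8, 20.1 and 85.2 FPKM on average in PCN, PN and WT), of 5 endothelial markers only Esam (1.79, 1.79 and 3.22), and of 7 fibroblast and 6 muscle and glia markers none. The part of these differences in the results below was not tested, and in bulk RNA fewer cells of a type and less RNA per cell cannot be told apart.

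In PN organoids, most of the listed pathway genes were lower than in WT, led by the ligands Tgfb3 and Bmp6 and the inhibitory SMAD gene Smad6, while Id3, Id4, Inhbb and Tgfbr3 were higher. The 26 pathway genes in this pair's table all kept an adjusted p under 0.05 in edgeR's quasi-likelihood test, 8 higher and 18 lower. That is 45.6% of the 57 symbols, against 36.4% of the 17165 genes tested (38.1% were in the authors' table); by direction it is 14% higher and 31.6% lower among the symbols, against 17.6% higher and 18.8% lower among all genes. The 57 symbols may include some that were not among the genes tested, so these shares, here and below, rest on unlike denominators. The median log2 fold change over the 26 genes was -0.57, against -0.26 over all genes fitted in this pair. The authors selected these genes on the same libraries, so the refit is a description of them and not a second test.

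Libraries labelled PCN differed from WT in both directions. Id1, Id3, Inhbb, Tgfbr3, Id4 and Bmp1 were higher, and Bmp6, Tgfb3, Bmp3 and Ltbp3 lower. The edgeR refit kept 24 genes, 12 higher and 12 lower, which is 42.1% of the symbols against 36.5% of the 17300 genes tested (38.6% were in the authors' table). Both directions stood at 21.1% of the symbols, beside 17.5% higher and 19.0% lower among all genes. The median log2 fold change of the 24 genes was -0.04, against -0.28 over all genes fitted. That median falls between Smurf2 at -0.32 and Bmp7 at 0.24, where no called gene lies. It restates the even split and is not a typical change.

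Between the knockout labels, nearly all listed pathway genes were higher in libraries labelled PCN than in PN, with Id1, Id3, Bmp4, Smad6 and Bmp1 ahead, Bmp4 on few counts. Of 18 genes kept by the edgeR refit, 16 were higher and 2, Bmp7 and Ltbp3, were lower. The 18 genes are 31.6% of the symbols against 23.8% of the 14758 genes tested (24.5% were in the authors' table), and the 16 higher are 28.1% against 12.3%, while the 2 lower are 3.51% against 11.5%. Of the 16, Bmp1, Bmp4 and Bmpr1a lie on chromosome 14, where 6 of 331 other listed genes were lower in this pair. Id2 lies on chromosome 12 before 95 Mb, where 265 of 269 were lower. The part of these regions in the counts was not tested. In 1 fit over all 9 libraries, Id2 and Tgfbr3 lost their call. The median log2 fold change of the 18 was 0.56, against 0.16 over all genes fitted. The 3 comparisons share libraries in pairs, so their fold changes are given side by side and no count of shared genes is drawn from them.

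**Figure D1:**
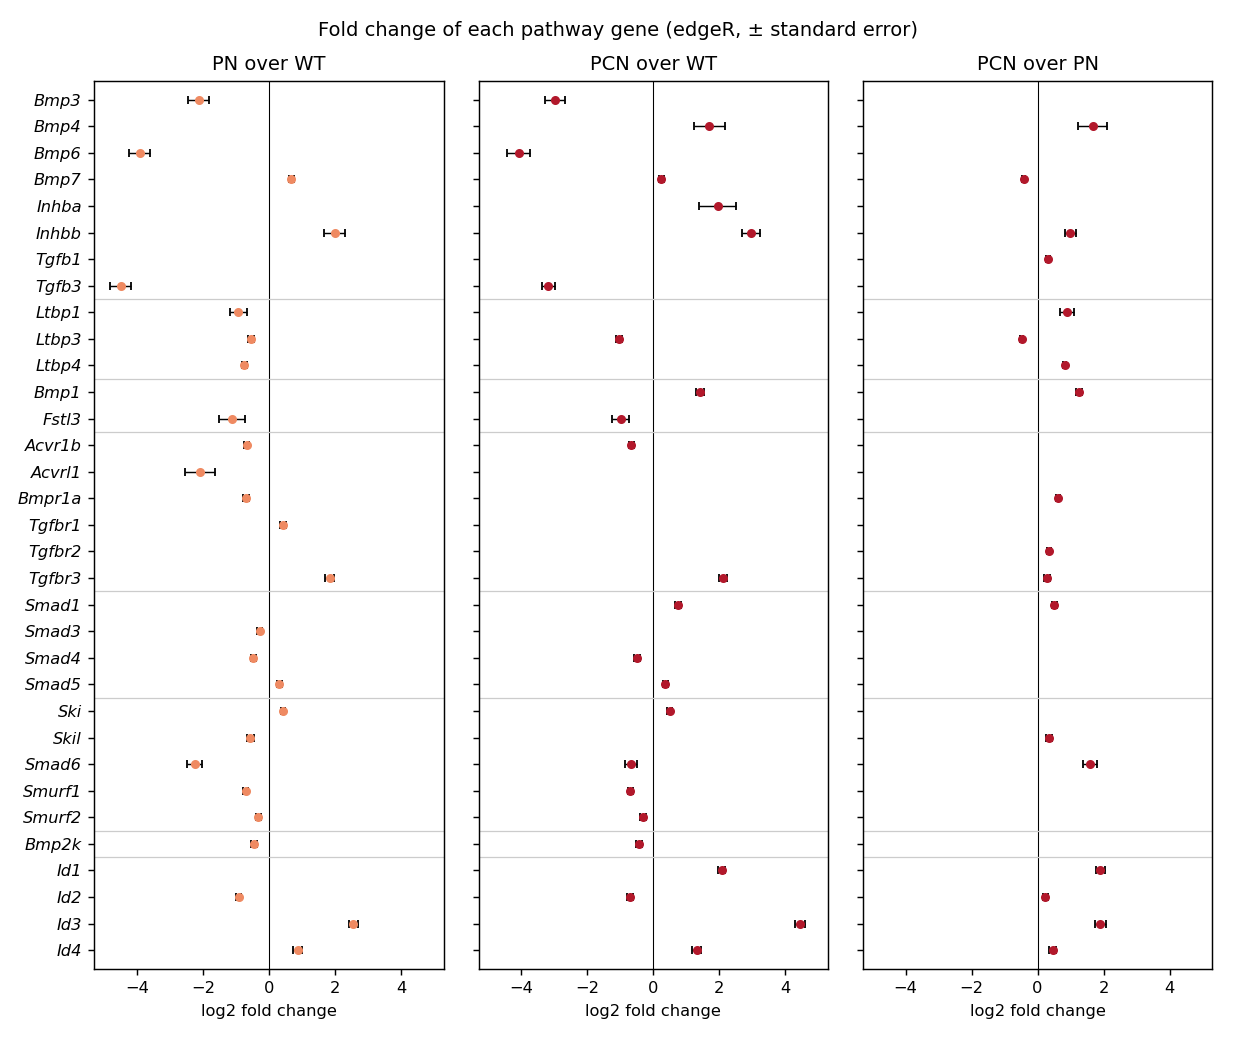
Log2 fold change of each pathway gene in PN over WT, libraries labelled PCN over WT, and libraries labelled PCN over PN (edgeR, bars are standard errors), with genes grouped by role and blank where a pair's table does not list the gene. The points run from -4.50 for Tgfb3 in PN over WT to 4.44 for Id3 in PCN over WT, and in PCN over PN only Bmp7 and Ltbp3 lie left of 0.

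Tgfb3 encodes one of the TGF-beta ligands (ENSMUSG00000021253, chr12:86056745-86079041, minus strand, GRCm38). It stood at 0.395, 0.356 and 0.397 FPKM in the 3 libraries labelled PCN, at 0.228, 0.192 and 0.0469 in PN, and at 3.32, 3.90 and 3.35 in WT. Every knockout library lay below every WT library, with 3 to 27 counts against 168 to 194 in WT. Tgfb3 was 22.7-fold lower in PN than in WT (log2 fold change -4.50 ± 0.31, standard error, edgeR adjusted p = 1.3e-07) and 9.12-fold lower in libraries labelled PCN (-3.19 ± 0.20, adjusted p = 2.2e-08). It is not in the table of PCN over PN, and 1 fit over all 9 libraries put that difference at 1.32 ± 0.38 (edgeR adjusted p = 0.022), all 3 libraries labelled PCN above all 3 of PN.

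Bmp6, a BMP ligand (ENSMUSG00000039004, chr13:38345107-38500302, plus strand), was low in both knockout labels. It stood at 0.0635, 0.132 and 0.220 FPKM in libraries labelled PCN, 0.213, 0.166 and 0.0813 in PN, and 2.93, 2.41 and 1.72 in WT. The PCN and PN libraries overlapped, and WT stood apart. Bmp6 fell 16.9-fold in libraries labelled PCN (-4.08 ± 0.35, edgeR adjusted p = 7.0e-07) and 15.2-fold in PN (-3.93 ± 0.33, adjusted p = 7.2e-07), on 5 to 16 counts in the knockout libraries against 101 to 171 in WT. Bmp3, which is known to oppose other BMPs in bone, was lower too, at 0.102 ± 0.040 FPKM in libraries labelled PCN, 0.183 ± 0.093 in PN and 0.806 ± 0.053 in WT (SD, n = 3), with log2 fold changes of -2.98 ± 0.30 and -2.14 ± 0.32 against WT in edgeR (adjusted p = 2.1e-06 and 0.00014).

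Inhbb encodes the beta-B subunit that forms activin B and inhibin B (ENSMUSG00000037035, chr1:119415465-119422248, minus strand). Its level was 1.95, 1.98 and 2.61 FPKM in libraries labelled PCN, 1.17, 0.941 and 1.17 in PN, and 0.408, 0.256 and 0.171 in WT. The 3 groups formed separate steps, with PCN replicate 3 the highest library. WT had only 26, 16 and 11 counts, against 68 to 207 in the knockout libraries. Relative to WT, Inhbb rose 7.82-fold in libraries labelled PCN (2.97 ± 0.28, edgeR adjusted p = 1.1e-06) and 3.94-fold in PN (1.98 ± 0.31, adjusted p = 0.00018), and PCN over PN came to 0.99 ± 0.16 (adjusted p = 1.2e-05). Inhba, the subunit of activin A, had 14, 22 and 18 counts in libraries labelled PCN and 7, 2 and 2 in WT, with a log2 fold change of 1.95 ± 0.57 (edgeR adjusted p = 0.014). That call rests on few counts: adjusted p was 0.060 without PCN replicate 2 and 0.065 without WT replicate 2, and the fold change was 2.79 without WT replicate 1.

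Bmp7 was the most abundant BMP ligand with values, at 39.5 ± 1.8 FPKM in libraries labelled PCN, 52.9 ± 1.1 in PN and 33.6 ± 2.8 in WT (SD, n = 3). It was highest in PN: the log2 fold change was 0.66 ± 0.07 in PN over WT (edgeR adjusted p = 1.1e-05) and -0.42 ± 0.05 in PCN over PN (adjusted p = 3.1e-08). PCN over WT was 0.24 ± 0.08 (adjusted p = 0.030), a call that ended without PCN replicate 2 (adjusted p = 0.115) or replicate 3 (0.134). Tgfb1, the ligand most studied in epithelia (ENSMUSG00000002603, chr7:25687002-25705077, plus strand), is listed only in PCN over PN. Its level was 27.5, 29.1 and 28.8 FPKM in libraries labelled PCN and 22.2, 22.7 and 23.8 in PN. These groups did not overlap, and the difference was 0.31 ± 0.05 (edgeR adjusted p = 1.2e-05). Tgfb2 had no values in the tables used here. Bmp4 stayed at or below 0.511 FPKM in every library, on 20 to 22 counts in libraries labelled PCN, 3 to 10 in PN and 2 to 7 in WT. Its log2 fold change was 1.70 ± 0.48 in PCN over WT (edgeR adjusted p = 0.011, but 0.057 without WT replicate 1) and 1.67 ± 0.45 in PCN over PN (adjusted p = 0.0048, but 0.064 without PN replicate 3, and 2.27 in size without PN replicate 2).

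Latent TGF-beta binding proteins hold secreted TGF-beta in the matrix. Ltbp3 (ENSMUSG00000024940, chr19:5740904-5758532, plus strand) stood at 47.4, 47.1 and 50.9 FPKM in libraries labelled PCN, 68.0, 66.4 and 68.4 in PN, and 104.6, 110.7 and 86.0 in WT. The groups stood in steps without overlap, in the opposite order to Inhbb. Its log2 fold change was -1.05 ± 0.09 in PCN over WT (edgeR adjusted p = 7.6e-07), -0.56 ± 0.09 in PN over WT (adjusted p = 0.00020) and -0.48 ± 0.05 in PCN over PN (adjusted p = 8.1e-10). Ltbp4 followed another pattern: 54.4 ± 1.1 FPKM in libraries labelled PCN, 30.6 ± 0.48 in PN and 52.0 ± 4.0 in WT (SD, n = 3). It fell in PN over WT (-0.75 ± 0.07, adjusted p = 2.5e-06) and was higher in libraries labelled PCN than in PN (0.83 ± 0.04, adjusted p = 4.7e-15), while the fit over 9 libraries put PCN over WT at 0.07 ± 0.06. Ltbp1 had much lower levels, 0.499 ± 0.060 FPKM in libraries labelled PCN, 0.268 ± 0.064 in PN and 0.515 ± 0.129 in WT. Its edgeR log2 fold change was -0.94 ± 0.26 in PN over WT (adjusted p = 0.010, but 0.053 without PN replicate 3) and 0.90 ± 0.20 in PCN over PN (adjusted p = 0.0010).

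Bmp1 is not a ligand of this family but a protease that trims procollagen and cleaves the BMP antagonist chordin (ENSMUSG00000022098, chr14:70474558-70520234, minus strand). It stood at 4.19, 4.63 and 4.66 FPKM in libraries labelled PCN, 2.03, 1.80 and 1.82 in PN, and 1.45, 1.73 and 1.90 in WT. PN and WT overlapped, and the libraries labelled PCN stood above both. Bmp1 rose 2.67-fold in PCN over WT (1.41 ± 0.12, edgeR adjusted p = 3.6e-07) and 2.38-fold in PCN over PN (1.25 ± 0.08, adjusted p = 6.2e-13). Fstl3, a secreted protein that traps activin (ENSMUSG00000020325, chr10:79777272-79782630, plus strand), stood at 1.05, 0.657 and 0.703 FPKM in libraries labelled PCN, 1.36, 0.506 and 0.368 in PN, and 1.48, 1.73 and 1.65 in WT. PN replicate 1 lay close to WT and the other knockout libraries lower. The log2 fold change was -0.99 ± 0.26 in PCN over WT (edgeR adjusted p = 0.0078) and -1.12 ± 0.39 in PN over WT (adjusted p = 0.039). The PN call did not hold: adjusted p was 0.055 with TMM scaling and 0.058 to 0.164 when any library but PN replicate 1 was left out, and without PN replicate 1 the fold change was -1.88 (adjusted p = 0.00075). Fst, Fstl1, Nog and Grem1, which also bind ligands, had no values in the tables used here.

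**Figure D2:**
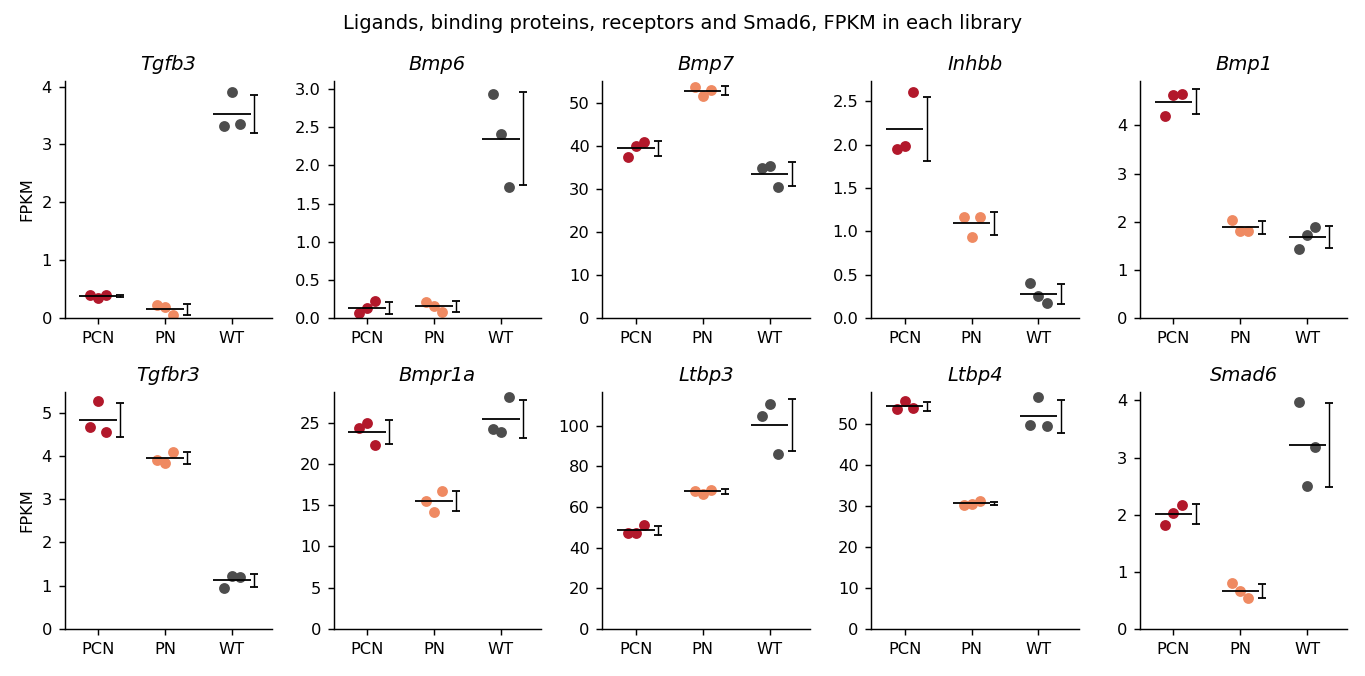
FPKM of 10 pathway genes in each library (points), with the group mean (line) and SD (bar, n = 3), for libraries labelled PCN, PN and WT. Tgfb3 and Bmp6 are near 0 in both knockout labels, Inhbb and Tgfbr3 are higher there than in WT, and Smad6, Bmpr1a and Ltbp4 are lowest in PN.

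Among receptors, the co-receptor gene Tgfbr3 was higher in both knockout labels. Tgfbr3 encodes betaglycan, which presents TGF-beta and inhibin (ENSMUSG00000029287, chr5:107106570-107289629, minus strand). Its level was 4.67, 5.27 and 4.55 FPKM in libraries labelled PCN, 3.92, 3.84 and 4.10 in PN, and 0.949, 1.22 and 1.19 in WT. All knockout libraries stood above all WT libraries. The rise was 4.32-fold in PCN over WT (2.11 ± 0.13, edgeR adjusted p = 2.3e-08) and 3.56-fold in PN over WT (1.83 ± 0.13, adjusted p = 1.4e-07). PCN over PN was 0.29 ± 0.08 (adjusted p = 0.0070), and this smaller call ended in the fit over 9 libraries (adjusted p = 0.069) and without PCN replicate 2 (0.068). The signalling receptors of TGF-beta itself moved less. Tgfbr1, the type I receptor (ENSMUSG00000007613, chr4:47353222-47414931, plus strand), stood at 7.30, 7.16 and 7.54 FPKM in PN and 5.19, 5.24 and 6.20 in WT, a log2 fold change of 0.41 ± 0.09 (edgeR adjusted p = 0.0023). Tgfbr2, the type II receptor (ENSMUSG00000032440, chr9:116084293-116175360, minus strand), is listed only in PCN over PN, at 25.1, 27.7 and 24.0 FPKM in libraries labelled PCN and 19.8, 20.1 and 20.6 in PN (0.34 ± 0.05, edgeR adjusted p = 3.9e-06). In neither case did the groups overlap.

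The BMP type I receptor gene Bmpr1a was lowest in PN. It averaged 23.9 ± 1.4 FPKM in libraries labelled PCN, 15.5 ± 1.2 in PN and 25.4 ± 2.3 in WT (SD, n = 3), with log2 fold changes of -0.70 ± 0.08 in PN over WT (edgeR adjusted p = 2.1e-05) and 0.62 ± 0.06 in PCN over PN (adjusted p = 1.6e-09). The libraries labelled PCN and WT overlapped. Acvr1b, a type I activin receptor, was lower in both knockout labels by a like amount, at 19.6 ± 0.71 FPKM in libraries labelled PCN, 19.5 ± 0.83 in PN and 31.4 ± 2.0 in WT (-0.68 ± 0.08 and -0.68 ± 0.07 against WT, edgeR adjusted p = 7.8e-06 and 8.3e-06). Acvrl1, a type I receptor best known from blood vessels, had 3 to 7 counts in PN and 15 to 23 in WT (-2.08 ± 0.45, adjusted p = 0.0024). Acvr1, Acvr1c, Acvr2a, Acvr2b, Bmpr1b and Bmpr2 had no values in the tables used here.

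The SMADs that carry the signal changed by less than 1 log2 unit in every pair in which they are listed. Smad1, a BMP SMAD, averaged 10.8 ± 0.78 FPKM in libraries labelled PCN, 7.59 ± 0.56 in PN and 6.43 ± 0.36 in WT (SD, n = 3). It rose in libraries labelled PCN over WT (0.75 ± 0.09, edgeR adjusted p = 9.1e-06) and over PN (0.51 ± 0.07, adjusted p = 8.3e-07). It is not listed in PN over WT, where the fit over 9 libraries gave 0.24 ± 0.08 (edgeR adjusted p = 0.031) and the groups did not overlap. Smad5, the other BMP SMAD with values, averaged 17.4 ± 1.1 FPKM in libraries labelled PCN, 16.6 ± 0.75 in PN and 13.6 ± 1.0 in WT. It rose in both knockout labels, by 0.36 ± 0.08 in PCN over WT (adjusted p = 0.0028) and 0.30 ± 0.08 in PN over WT (adjusted p = 0.0063). Smad3, which carries the TGF-beta and activin signal (ENSMUSG00000032402, chr9:63646767-63757994, minus strand), is listed only in PN over WT, at 16.6, 16.2 and 16.5 FPKM in PN and 20.5, 20.8 and 19.6 in WT (-0.29 ± 0.07, edgeR adjusted p = 0.0032). Smad4, the partner of both branches (ENSMUSG00000024515, chr18:73639009-73703780, minus strand), stood at 27.3, 31.3 and 28.2 FPKM in libraries labelled PCN, 29.5, 29.4 and 27.9 in PN, and 37.3, 42.9 and 42.3 in WT. All 6 knockout libraries lay below all 3 WT libraries, and PCN and PN overlapped. Smad4 fell by 0.49 on the log2 scale in both labels against WT (standard errors 0.08 in PCN and 0.07 in PN, edgeR adjusted p = 0.00027 and 0.00014). Smad2 and Smad9 had no values in the tables used here.

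Smad6 encodes an inhibitory SMAD that blocks mainly BMP signalling and is itself a known BMP target (ENSMUSG00000036867, chr9:63953076-64022059, minus strand). It stood at 1.82, 2.02 and 2.18 FPKM in libraries labelled PCN, 0.796, 0.662 and 0.544 in PN, and 3.98, 2.51 and 3.18 in WT. The groups did not overlap, with PN lowest. Smad6 fell 4.80-fold in PN over WT (-2.26 ± 0.23, edgeR adjusted p = 4.6e-06) and was 3.01-fold higher in libraries labelled PCN than in PN (1.59 ± 0.20, adjusted p = 2.0e-07). PCN over WT was -0.68 ± 0.19 (adjusted p = 0.0093, but 0.055 without WT replicate 1).

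Smad7, the other inhibitory SMAD, had no values in the tables used here. The co-repressor gene Ski averaged 38.0 ± 1.4 FPKM in libraries labelled PCN, 36.0 ± 0.87 in PN and 27.0 ± 1.2 in WT, and rose against WT by 0.49 ± 0.07 in libraries labelled PCN and 0.43 ± 0.07 in PN (edgeR adjusted p = 7.6e-05 and 0.00016). Its relative Skil, which encodes SnoN, was less abundant, at 2.48 ± 0.21 FPKM in libraries labelled PCN, 1.94 ± 0.094 in PN and 2.91 ± 0.34 in WT. Skil fell in PN over WT (-0.57 ± 0.11, adjusted p = 0.0012) and was higher in libraries labelled PCN than in PN (0.35 ± 0.09, adjusted p = 0.0039). The ubiquitin ligase genes were lower in both knockout labels. Smurf1 averaged 10.465 ± 0.20 FPKM in libraries labelled PCN, 10.3 ± 0.32 in PN and 17.0 ± 0.82 in WT, and Smurf2 averaged 11.2 ± 0.37, 11.0 ± 0.52 and 13.95 ± 0.98 in the same groups (SD, n = 3). In each case PCN and PN overlapped and WT lay above both. Against WT, the log2 fold changes of Smurf1 were -0.69 ± 0.07 in PCN and -0.71 ± 0.07 in PN, and those of Smurf2 were -0.32 ± 0.08 in PCN and -0.33 ± 0.08 in PN (edgeR adjusted p from 4.6e-06 to 0.0054). Bmp2k, a kinase named for its induction by BMP2 and better known from endocytosis, fell likewise (-0.43 ± 0.09 in PCN and -0.47 ± 0.09 in PN, adjusted p = 0.0016 and 0.00068).

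The Id genes encode proteins that bind basic helix-loop-helix factors and keep them off DNA, and they are the usual readout of BMP signalling. Id1 (ENSMUSG00000042745, chr2:152736251-152737410, plus strand) stood at 115.6, 119.9 and 150.6 FPKM in libraries labelled PCN, 35.6, 29.9 and 37.5 in PN, and 30.2, 30.5 and 31.4 in WT. The libraries labelled PCN stood above all others, and PN and WT overlapped. Id1 was 4.20-fold higher in PCN over WT (2.07 ± 0.10, edgeR adjusted p = 2.1e-09) and 3.74-fold higher in PCN over PN (1.90 ± 0.13, adjusted p = 2.6e-05). It is not listed in PN over WT, where the fit over 9 libraries gave 0.16 ± 0.11 (adjusted p = 0.431). At 128.7 ± 19.1 FPKM it was also the highest group mean of all 33 genes, ahead of Ltbp3 in WT at 100.4 ± 12.9.

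Id3 (ENSMUSG00000007872, chr4:136143497-136145755, plus strand) rose in both knockout labels. Its level was 50.6, 57.9 and 73.5 FPKM in libraries labelled PCN, 17.9, 16.3 and 14.7 in PN, and 2.91, 2.43 and 3.07 in WT. The groups stood in separate steps. Id3 was 21.7-fold higher in PCN over WT (4.44 ± 0.16, edgeR adjusted p = 7.6e-10), 5.84-fold in PN over WT (2.54 ± 0.14, adjusted p = 1.2e-08) and 3.73-fold in PCN over PN (1.90 ± 0.17, adjusted p = 0.00031). The size of the PCN step over PN was 1.90 for Id1 and Id3 alike, while the PN step over WT was listed for Id3 alone of these 2 genes.

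Id4 (ENSMUSG00000021379, chr13:48261228-48266026, plus strand) showed smaller steps in the same order, with 5.36, 4.82 and 5.97 FPKM in libraries labelled PCN, 3.50, 4.01 and 4.23 in PN, and 1.98, 2.12 and 2.43 in WT. No groups overlapped. Its log2 fold change was 1.31 ± 0.14 in PCN over WT (edgeR adjusted p = 3.9e-06), 0.86 ± 0.14 in PN over WT (adjusted p = 0.00025) and 0.46 ± 0.10 in PCN over PN (adjusted p = 0.00099). Id2 went the other way against WT (ENSMUSG00000020644, chr12:25093799-25097140, minus strand). It stood at 24.7, 27.5 and 28.6 FPKM in libraries labelled PCN, 23.8, 21.6 and 23.1 in PN, and 46.0, 39.1 and 46.5 in WT. Both knockout labels lay below WT, with log2 fold changes of -0.70 ± 0.09 in PCN (edgeR adjusted p = 2.6e-05) and -0.93 ± 0.09 in PN (adjusted p = 1.8e-06). PCN over PN was 0.24 ± 0.06 (adjusted p = 0.0054), a call that ended in the fit over 9 libraries (adjusted p = 0.060) and without PN replicate 2 (0.054). PCN replicate 3 was the highest library of its label for all 4 Id genes. It was also the highest for Acvr1b, Bmp1, Bmp3, Bmp6, Bmp7, Inhbb, Ltbp3, Smad1, Smad6 and Tgfb3, and not for the other pathway genes.

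**Figure D3:**
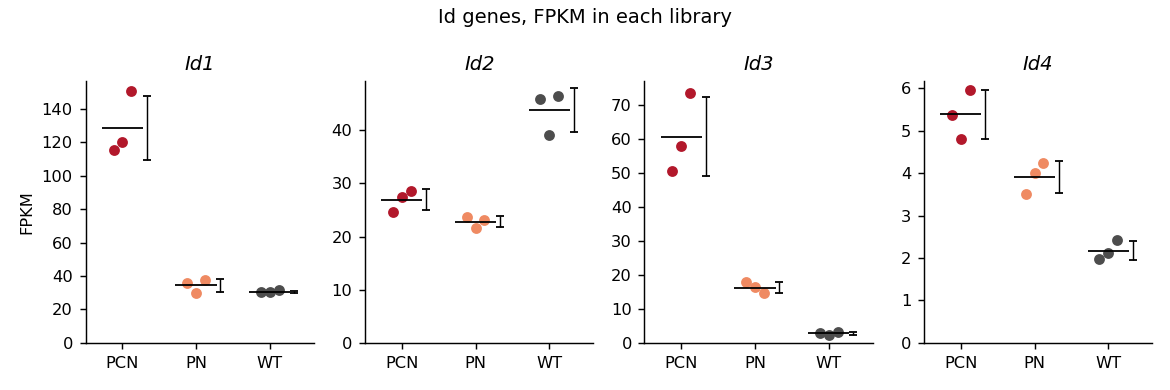
FPKM of the 4 Id genes in each library (points), with the group mean (line) and SD (bar, n = 3), for libraries labelled PCN, PN and WT. Id1 is high in the libraries labelled PCN alone, Id3 and Id4 stand in 3 steps, and Id2 is highest in WT.

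Since the Id genes and Smad6 are known targets of the SMADs, the sequence just upstream of their starts is shown from the RefSeq table of promoters (GRCm38.p6), which held 24 of the 33 genes. Windows were the 250 bases before each annotated start, and those of Id4 (chr13:48260866-48261115, plus strand) and Smad6 (chr9:64022060-64022309, minus strand) are given whole, 5′ to 3′. Capitals mark matches to GGCGCC, a GC-rich element bound by SMAD1 and SMAD5, to CAGAC, the box bound by SMAD3 and SMAD4, and to TGGGAA, the core bound by RBPJ, the DNA-binding partner of Notch receptors. Both strands were searched, and no match overlapped another in these windows. In Id4 the match GGCGCC starts at position -148 and TTCCCA, which is TGGGAA on the other strand, at -245. The Smad6 window holds none of the 3, which says only that these letters are not in it.

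Id4: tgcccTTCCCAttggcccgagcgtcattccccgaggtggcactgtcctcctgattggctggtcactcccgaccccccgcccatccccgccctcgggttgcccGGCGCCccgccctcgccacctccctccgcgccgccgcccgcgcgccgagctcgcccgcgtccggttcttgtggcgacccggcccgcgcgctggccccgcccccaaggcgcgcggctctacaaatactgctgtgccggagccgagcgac
Smad6: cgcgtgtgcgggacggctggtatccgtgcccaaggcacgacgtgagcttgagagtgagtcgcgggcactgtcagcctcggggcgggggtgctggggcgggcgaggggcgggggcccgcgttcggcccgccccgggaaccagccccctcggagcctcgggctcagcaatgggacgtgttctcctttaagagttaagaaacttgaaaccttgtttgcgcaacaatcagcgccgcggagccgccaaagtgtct

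For Id3 and Id2 only a stretch of up to 30 bases around a match is shown, since their windows run into annotated exons. Id3 has CAGAC at position -167 (chr4:136143645-136143669, plus strand) and its reverse complement GTCTG at -68 (chr4:136143744-136143768, plus strand), and Id2 has GGCGCC at -231 (chr12:25096308-25096333, minus strand).

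Id3 at -167: tcctcggcgtCAGACcagcctaagg
Id3 at -68: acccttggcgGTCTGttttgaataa
Id2 at -231: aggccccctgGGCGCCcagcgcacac

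Such matches are common. GGCGCC was found in 9.59% of the 32851 windows in the table, CAGAC in 42.2% and TGGGAA in 21.6%. Of the 30 windows of the 24 pathway genes, 10 held GGCGCC (9 genes), 11 CAGAC (10 genes) and 6 TGGGAA (6 genes). Some windows of the same gene overlap, and the shares were not tested against each other. They describe the letters upstream of the genes and are not sites of measured binding. Id1 and Tgfb3 had no window in the table.

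Several pathway genes lie in regions where most listed genes moved together, in the authors' deposited tables. On chromosome 14, which holds Bmp1, Bmp4 and Bmpr1a, 264 of the 282 other listed genes were lower in PN over WT (93.6%, median log2 fold change -0.69), against 50.2% (median -0.20) on the other chromosomes. In PCN over PN, 6 of 331 were lower (1.81%, median 0.61), and in PCN over WT 51.6% were. The values of Bmpr1a in the same tables, -0.70 in PN over WT and 0.62 in PCN over PN, were close to these medians, while those of Bmp1 and Bmp4 in PCN over PN, 1.25 and 1.68, were above theirs. On chromosome 12 before 95 Mb, which holds Tgfb3 and Id2, 287 of 293 other listed genes were lower in PCN over WT (97.95%, median -1.07) and 265 of 269 in PCN over PN (98.5%, median -0.92), and 63.0% (median -0.50) in PN over WT. Id2 stood above these medians with PCN, at -0.70 over WT and 0.24 over PN, and below in PN over WT, at -0.93. Tgfb3 stood below in both pairs that list it, at -3.20 in PCN over WT and -4.52 in PN over WT. It is not listed in PCN over PN, where the fit over 9 libraries gave 1.32. The part of these regions in the results on the genes they hold was not tested.

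**Figure D4:**
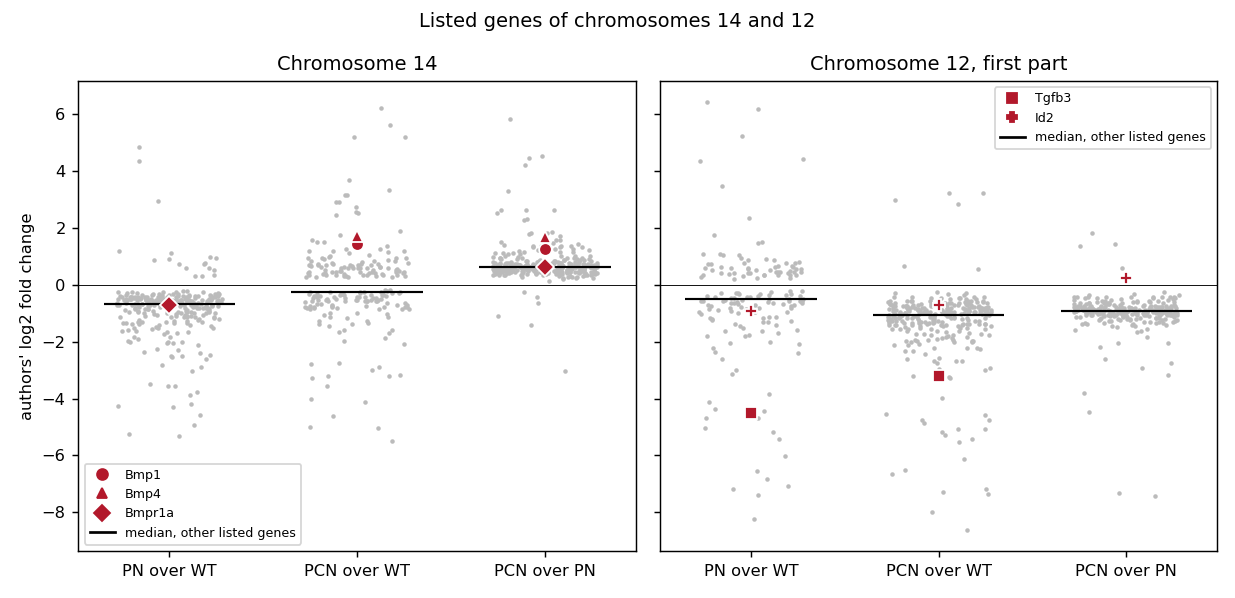
Authors' deposited log2 fold changes of listed genes on chromosome 14 (left) and on chromosome 12 before 95 Mb (right) in PN over WT, libraries labelled PCN over WT and libraries labelled PCN over PN. Grey points are other genes, black lines their medians, and red symbols pathway genes. Bmpr1a lies on the chromosome 14 median in both pairs that list it, and Id2 lies above the chromosome 12 median in PCN over PN.

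Genes that act around the pathway were taken from 6 lists of symbols, chosen with earlier results of these data known. Over the 6 lists the edgeR refit called 30 genes in PN over WT (12 higher, 18 lower), 31 in PCN over WT (14 and 17) and 29 in PCN over PN (18 and 11). Set against the 118 symbols of the lists, these are 25.4%, 26.3% and 24.6%, beside 36.4%, 36.5% and 23.8% of all genes tested. The lists may hold symbols that were not among the genes tested, so here too the shares rest on unlike denominators. Of the 29 in the last pair, 21 could enter the fit over all 9 libraries, which called 17 of them (12 and 5); Fkbp1a, Myc, Tab2 and Tpm1 lost their call. Of 26 TGF-beta response genes, many of them matrix and growth-arrest genes that TGF-beta is known to induce, 14 had values. The list was not restricted to induced genes and holds Myc, so its directions do not measure the signal. In PN over WT 2 rose and 9 fell, in PCN over WT 2 rose and 8 fell, and in PCN over PN the 8 that the table lists all rose. Of these 8, Myc and Tpm1 lost their call in the fit over 9 libraries, and Itga5 and Junb could not enter it. The Junb values of PCN and PN overlapped. As shares of the 26 symbols, these are 7.69% higher and 34.6% lower in PN over WT (17.6% and 18.8% of all genes tested), 7.69% and 30.8% in PCN over WT (17.5% and 19.0%), and 30.8% higher in PCN over PN (12.3%).

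Jun, which encodes a subunit of the AP-1 transcription factor, stood at 17.2, 18.3 and 16.7 FPKM in libraries labelled PCN, 5.06, 5.23 and 4.51 in PN, and 19.3, 19.3 and 17.5 in WT. PN alone was low: -1.91 ± 0.10 in PN over WT and 1.82 ± 0.08 in PCN over PN (edgeR adjusted p = 5.6e-09 and 4.8e-17). Cdkn1a encodes the cell-cycle inhibitor p21, which is induced by TGF-beta and also by p53. It averaged 9.69 ± 0.39 FPKM in libraries labelled PCN, 7.30 ± 0.71 in PN and 52.3 ± 2.9 in WT (SD, n = 3), with -2.43 ± 0.08 in PCN and -2.83 ± 0.09 in PN against WT (adjusted p = 3.3e-11 and 8.0e-11). The fibronectin gene Fn1 went the other way, at 2.55 ± 0.13 FPKM in libraries labelled PCN, 2.28 ± 0.36 in PN and 0.417 ± 0.042 in WT (2.62 ± 0.13 and 2.46 ± 0.15 against WT, adjusted p = 2.2e-09 and 4.7e-08). Of 12 BMP response genes outside the Id family, 3 had values. The refit called 2 in PN over WT (16.7% of the list, against 36.4% of all genes), 1 in PCN over WT (8.33% against 36.5%) and 3 in PCN over PN (25% against 23.8%). The homeobox gene Dlx3 averaged 4.67 ± 0.24 FPKM in libraries labelled PCN, 6.93 ± 0.84 in PN and 0.901 ± 0.357 in WT (2.37 ± 0.24 and 2.95 ± 0.23 against WT, edgeR adjusted p = 2.1e-06 and 3.6e-07), and -0.57 ± 0.11 in PCN over PN (adjusted p = 0.00013). Gata6, a transcription factor gene, was highest in PN, at 1.32 ± 0.19, 2.52 ± 0.062 and 1.33 ± 0.20 FPKM in PCN, PN and WT (0.93 ± 0.14 in PN over WT, -0.92 ± 0.13 in PCN over PN, adjusted p = 0.00016 and 8.6e-07).

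Among 16 other extracellular antagonists, 5 had values: 1 was called higher and 1 lower in PN over WT, 3 and 1 in PCN over WT, and 2 and 1 in PCN over PN. These are 12.5%, 25% and 18.8% of the list, beside 36.4%, 36.5% and 23.8% of all genes tested. Sostdc1, a secreted BMP and Wnt antagonist, stood at 2.42, 2.26 and 2.86 FPKM in libraries labelled PCN, 0.70, 0.661 and 0.772 in PN, and 0.338, 0.535 and 0.186 in WT. The libraries labelled PCN stood apart, by 2.83 ± 0.34 over WT and 1.81 ± 0.24 over PN (edgeR adjusted p = 1.4e-05 and 4.8e-07), although the gene lies on chromosome 12 in the region described above. The DAN antagonist gene Nbl1 was higher in both labels (0.73 ± 0.17 in PCN and 0.82 ± 0.16 in PN against WT, adjusted p = 0.0080 and 0.0024). Bambi, which encodes a receptor lacking its kinase, was lower (-1.51 ± 0.30 and -1.38 ± 0.28, adjusted p = 0.0010 and 0.0013).

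Of 20 co-receptors and activators of latent ligand, 5 had values, with 1 higher and 1 lower in PN over WT, 3 and 1 in PCN over WT, and the 3 listed in PCN over PN were higher. They make up 10%, 20% and 15% of the list, beside 36.4%, 36.5% and 23.8% of all genes tested. The BMP co-receptor gene Rgma averaged 9.86 ± 1.0 FPKM in libraries labelled PCN, 7.35 ± 0.27 in PN and 4.94 ± 1.0 in WT (1.00 ± 0.14 in PCN and 0.58 ± 0.13 in PN against WT, edgeR adjusted p = 6.9e-05 and 0.0023). Neo1, the receptor of RGM proteins, was higher in libraries labelled PCN than in either other group (0.81 ± 0.09 over WT and 0.84 ± 0.06 over PN, adjusted p = 6.3e-06 and 4.1e-13). Itgb6, a subunit of an integrin that activates latent TGF-beta, was lowest in PN, with -1.44 ± 0.24 in PN over WT, -0.61 ± 0.17 in PCN over WT and 0.84 ± 0.21 in PCN over PN (adjusted p = 0.00028, 0.0094 and 0.0026).

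Intracellular regulators had 18 of 28 genes with values, 5 higher and 6 lower in PN over WT, 5 and 7 in PCN over WT, and 3 and 7 in PCN over PN. At 39.3%, 42.9% and 35.7% of the list, the called genes stand beside 36.4%, 36.5% and 23.8% of all genes. Ppm1a, a phosphatase that acts on SMADs and is also encoded on chromosome 12 before 95 Mb, averaged 5.66 ± 0.40 FPKM in libraries labelled PCN, 10.7 ± 0.25 in PN and 11.0 ± 0.10 in WT. Its fold changes, -0.96 ± 0.08 over WT and -0.92 ± 0.06 over PN (edgeR adjusted p = 2.6e-07 and 6.9e-14), stand beside medians of -1.07 and -0.92 for that region in the authors' deposited tables. Usp11, a deubiquitinase of TGF-beta receptors, was higher in libraries labelled PCN (0.85 ± 0.18 over WT and 1.23 ± 0.18 over PN, adjusted p = 0.0017 and 3.8e-06). Hipk2, a kinase that binds SMADs and Ski, was lower in both labels against WT (-0.64 ± 0.11 in PCN and -0.69 ± 0.11 in PN, adjusted p = 0.00023 and 0.00019). Among 16 other ligands of the superfamily, 3 had values, and 2 (12.5%) were called in PN over WT and 2 in PCN over PN, while the PCN over WT table lists none. Inha, the alpha subunit of inhibin, had 52, 26 and 32 counts in libraries labelled PCN, 4, 15 and 13 in PN, and 59, 59 and 33 in WT (-2.45 ± 0.41 in PN over WT and 1.67 ± 0.37 in PCN over PN, adjusted p = 0.00035 and 0.00090). Gdf11 is listed in PN over WT only (0.58 ± 0.17, adjusted p = 0.013, but 0.061 without PN replicate 3).

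**Figure D5:**
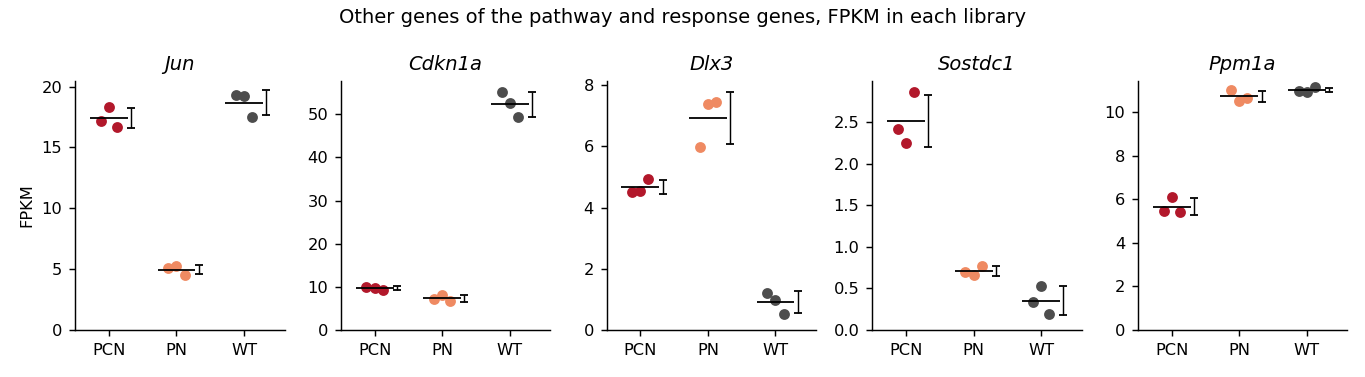
FPKM of 5 genes that act around the pathway in each library (points), with the group mean (line) and SD (bar, n = 3), for libraries labelled PCN, PN and WT. Jun is low in PN alone, Cdkn1a is low and Dlx3 high in both knockout labels, and Sostdc1 is high and Ppm1a low in the libraries labelled PCN.

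Whether reads were counted by strand was not stated in any source used here. In GENCODE M21, 9 of the 33 genes share sequence with a gene on the opposite strand (Acvrl1, Bmp2k, Bmp4, Bmp6, Bmpr1a, Fstl3, Id4, Ltbp3 and Tgfb3). If reads were not counted by strand, reads of those partners cannot be told apart from theirs. A further 3 genes (Smad5, Smurf2 and Tgfbr3) share sequence with a gene on the same strand, which counting by strand would not separate.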

How the data were processed

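RNA was measured in 9 libraries, 3 each labelled PCN, PN and WT. Per the submitters' processing notes, CASAVA and DESeq were used with build GRCm38 (mm10). Not given in the sources used here: aligner, read counter and annotation release. The raw counts per gene are the authors' own, per the file headers. The deposited normalized signal equals that count over a size factor, which the authors set for each library within each pair. FPKM were made by the authors from counts and gene length, and recovering the divisor gives effective library sizes in proportion to the size factors, not plain read totals, so the true depth is unknown. The log2 fold change and the p-value with its adjusted form are the authors' deposited values, per the file headers, and each table holds only genes with an adjusted p under 0.05. The members and gene lists were chosen with earlier results of these data known.

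The counts of each pair's table were refitted in edgeR 4.0.16 (R 4.3.3) by its robust quasi-likelihood F test after filterByExpr by group, the authors' size factors being offsets. The Benjamini-Hochberg adjustment ran over 17165, 17300 and 14758 genes, numbers recovered from the deposited adjusted p-values; the threshold was 0.05. Standard errors were worked back as the absolute log2 fold change divided by the root of F. The planned scaling by plain library totals was replaced by the effective sizes. A fit over all 9 libraries gave values where a pair's table does not list a gene. The scripts were tested on simulated counts. Members were given with every library's value if called with at least a 2-fold change and 1 FPKM in the higher group, or if they are core pathway genes (Tgfb1 to Tgfb3, Tgfbr1, Tgfbr2, Smad2 to Smad4, Smad6, Smad7, Id1 to Id3). From each other list, up to 3 genes with the largest called change against WT and 1 FPKM in the higher group were named. Gene coordinates in the tables equal GENCODE M21 for 33 of 33 members. Alternatives were TMM, effective sizes, DESeq2 1.42.0, no count filter, a replicate block, 1 fit over 9 libraries, adjustment over the table alone, the authors' adjusted p, and each library left out.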

Additional observations from a re-analysis of the deposited data

How the results depend on the processing

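The 68 called fold changes of pathway genes were recomputed under 946 alternatives in all: 927 kept the call and its direction, 19 lost the call with the same direction, and 0 reversed; 59 of the 68 kept their call throughout. The 9 that lost it (Fstl3 and Ltbp1 in PN over WT, Bmp4, Bmp7, Inhba and Smad6 in PCN over WT, Bmp4, Id2 and Tgfbr3 in PCN over PN) have their values beside the results. Of 489 alternatives for 35 fold changes of other named genes, 1 lost its call, Gdf11 without PN replicate 3. In both tallies, the authors' adjusted p and the adjustment over the table alone could not end a call. The authors' value is under 0.05 for every listed gene, and adjusting over fewer genes can only lower an adjusted p. DESeq2 used the same counts and the authors' size factors, so it could end few calls. It called 6537 of 6544 genes in PN over WT, 6668 of 6678 in PCN over WT and 3596 of 3609 in PCN over PN. Leaving out 1 library at a time gave 24 to 26 pathway genes in PN over WT, 22 to 24 in PCN over WT and 17 to 18 in PCN over PN, against 26, 24 and 18; for the other genes it gave 27 to 31, 27 to 32 and 25 to 28, against 30, 31 and 29. A fit over 9 libraries could take only genes that had values in all 9 libraries and passed the count filter. These were 23 of 26, 23 of 24 and 16 of 18 called pathway genes. Of them it called 23, 23 and 14 (Id2 and Tgfbr3 lost in PCN over PN). The called pathway genes it could not take had no values in a whole group, which says nothing about their level there. For the other genes in PCN over PN it called 17 in place of 29, of which 8 could not enter it and 4 lost their call. TMM moved the median of all fitted genes by 0.064, 0.061 and -0.023 (log2).

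Same-numbered replicates of PN and WT deviated from their group means with correlations from 0.0996 to 0.218, and different numbers with -0.205 to 0.042. In PCN and WT these ranges were -0.271 to -0.102 and -0.149 to 0.271. In PCN and PN they were -0.161 to -0.058 and -0.040 to 0.099. The labels do not say that equal numbers mark a shared culture, so the numbers were not taken as pairs. With a replicate block 26, 23 and 18 pathway genes and 30, 29 and 28 other genes were called. Bmp7 lost its PCN over WT call under the block (adjusted p = 0.073, edgeR). Depth limits Acvrl1, Bmp3, Bmp4, Bmp6, Fstl3, Inhba, Inhbb and Tgfb3, which had few counts in at least 1 group. The tables of called genes say nothing of the 24 pathway symbols without values.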
